A study of Mus musculus with 6 samples.

Results

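Imprinted genes are transcribed mainly from the copy inherited from one parent. The expression of 44 mouse imprinted genes that lie outside the *Igf2* locus was compared between *HOXA13*-overexpressing and control mouse embryonic stem cells (mESC). The genes were taken by symbol from a list of well-described imprinted clusters, they form 44 of the 24393 features in each count table. On the mm9 annotation, 42 of the 44 genes were placed by symbol, and *Kcnq1ot1* and *Peg13* were not. They were grouped by cluster and by the parental allele that is known to be expressed, which gave 21 paternally expressed genes, 21 maternally expressed genes and 2 genes (*Gnas* and *Inpp5f*) for which the allele depends on the transcript.

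RNA-seq was performed on KH2 mESC, with 3 libraries labelled CONTROL and 3 labelled HOXA13, all from the strain labelled C57/BL/6. KH2 cells are a mESC line made for placing a transgene at a fixed site by FLP recombination. In the HOXA13 group, human *HOXA13* under doxycycline control was placed there and clones were selected with hygromycin. The labels state that no treatment was given, while the study's methods describe doxycycline for testing targeted clones. Both groups were grown with LIF and serum on irradiated Swiss 3T3 mouse fibroblasts, so feeder RNA can be among the counts. The study's methods call the 3 samples of each group biological replicates, but do not state whether each was a clone of its own, and p-values here measure the spread between these libraries. RNA was selected with oligo-dT, the counts carry no information on the parental allele, and in such bulk samples fewer expressing cells and less RNA per cell cannot be told apart.

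In an imprinted cluster, methylation set in the egg or the sperm marks a control region on one parental copy, and this mark is kept through the genome-wide demethylation of the early embryo. A noncoding RNA or an insulator at the control region then silences neighbouring genes on one chromosome, so that paternally and maternally expressed genes often lie side by side. Many of these genes act in the placenta, in fetal growth or in the brain, and cultured mESC are known for instability of imprinted expression between lines and cultures.

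Libraries held between 14608681 and 21766589 counts in the control group and between 13494135 and 20374341 counts in the HOXA13 group. The feature with the human identifier ENSG00000106031 was counted 6, 0 and 0 times in control replicates 1, 2 and 3, against 4298, 4177 and 2881 times in the HOXA13 replicates. Levels are given as CPM (counts scaled to a common library size with TMM factors), and 3 counts, the lowest level treated as measurable, corresponded to 0.134 to 0.227 CPM. All 10 pluripotency markers were present in every library, with a summed level of 2491 to 3304 CPM in control and 3350 to 3440 CPM in HOXA13 cells, and 5 of the 10 were called higher and 1 lower. The 20 fibroblast genes summed to 14547, 20582 and 19919 CPM in control replicates 1, 2 and 3 and to 17827 to 21675 CPM in HOXA13 cells. Their sum was above that of the pluripotency markers in every library and lowest in control replicate 1. None of them was called, beside 27.7% of all genes. Control libraries differed from each other more than HOXA13 libraries did. The chi-square of the counts per degree of freedom was 12.7 to 34.2 between control libraries and 1.89 to 6.03 between HOXA13 libraries. Counting error alone gives about 1, and the lowest value was that of HOXA13 replicates 2 and 3. Whether the HOXA13 libraries came from separate clones cannot be told from these values. Primitive streak markers summed to 523, 90.0 and 254 CPM in control replicates 1, 2 and 3 and to 51.8 to 53.6 CPM in HOXA13 cells, and 6 of 8 tested markers were called lower. Neural markers summed to 345 to 583 CPM in control and 153 to 163 CPM in HOXA13 cells, with 4 of 5 tested markers called lower and *Neurog2* at or under 3 counts throughout. Trophoblast markers summed to 76.5 to 149 CPM in control and 259 to 263 CPM in HOXA13 cells, with 3 of 7 tested markers called higher (*Gata3*, *Tfap2c* and *Krt7*), 1 called lower (*Eomes*) and *Tpbpa* at or under 3 counts throughout. Most of that sum in HOXA13 cells was *Tfap2c*, at 50.1 to 60.8 CPM in control and 218 to 226 CPM in HOXA13 cells. The other 9 markers summed to 98.5, 26.2 and 58.6 CPM in control and 40.9, 37.4 and 37.8 CPM in HOXA13 libraries. Most of that control sum was *Eomes*, which is also counted among the primitive streak markers, at 79.9, 17.5 and 45.8 CPM. The mean of *Eomes* in HOXA13 cells was 13.1 CPM. Among the same 9 markers, *Gata3* rose from a mean of 4.97 to 14.7 CPM and *Krt7* from 2.18 to 5.05 CPM. Of the 9 tested primitive endoderm markers, 2 were called higher and 2 lower. Beside these counts of markers, 14.4% of all genes were called higher and 13.3% lower. What part these differences in cell state, or RNA of the feeder cells, have in the values of the imprinted genes was not tested.

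Imprinted genes changed in both directions, and in 3 clusters (*Kcnq1*, *Dlk1-Dio3* through *Rtl1*, and *Snrpn* through *Magel2*) genes were called in both directions. The largest increases were those of the retrotransposon-derived genes *Peg10* and *Rtl1*, and the largest decreases past the threshold were those of *Magel2*, whose groups overlap and whose call was lost in 7 of 14 alternatives, *Nnat* and *Zdbf2*. Of the 44 genes, 41 had enough counts to be tested, and 17 of these (41.5%) passed an edgeR adjusted p of 0.05, beside 27.7% of all 13846 genes tested. The 8 genes called higher (19.5%, beside 14.4% of all genes) were *Copg2*, *Peg10*, *Sgce*, *Ppp1r9a*, *Mkrn3*, *Plagl1*, *Ascl2* and *Rtl1*. The 9 genes called lower (22.0%, beside 13.3% of all genes) were *Magel2*, *Cdkn1c*, *Meg3*, *Dlk1*, *Rian*, *Mirg*, *Nnat*, *Zdbf2* and *Inpp5f*. The median log2 fold change was -0.12 over the 41 genes, with an interquartile range from -0.58 to 0.05, beside 0.00 and -0.23 to 0.23 over all genes. *Rtl1* passed the filter on low counts through the HOXA13 group alone. Without it, 16 of 40 tested genes (40.0%) were called, 7 higher (17.5%) and 9 lower (22.5%), and the median was -0.14. The other 24 tested genes did not pass, with log2 fold changes from -1.36 to 0.46, and 20 of them lay within 0.5 of no change. *Snrpn*, *Kcnq1* and *Kcnk9* had too few counts for a test.

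**Figure D1:**
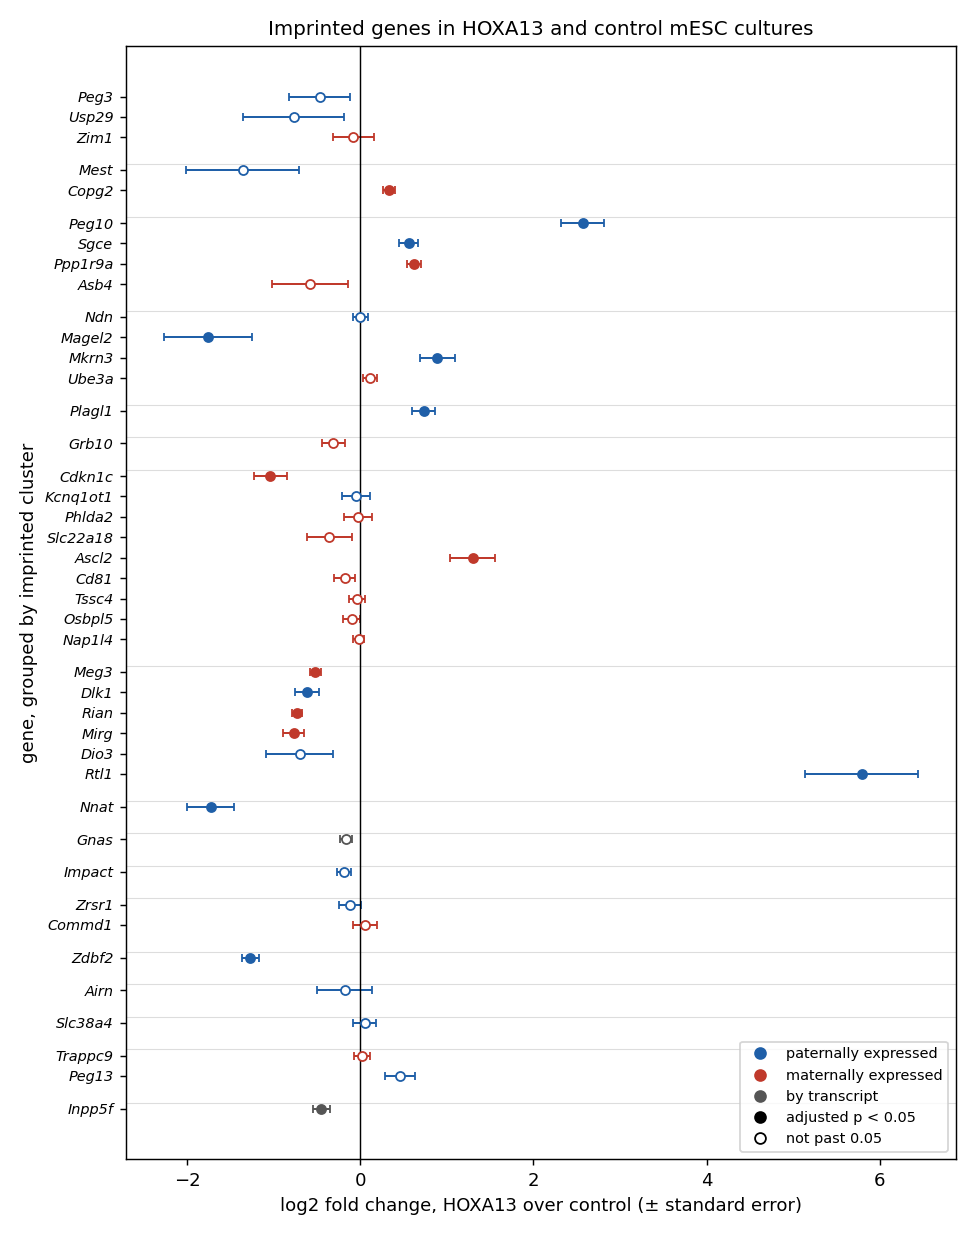
Log2 fold change (HOXA13 over control, x axis) of the 41 tested imprinted genes, with bars for the standard error, grouped by cluster and coloured by the expressed parental allele, filled where the adjusted p was under 0.05. *Peg10* at 2.57 lies far from its cluster, and the fitted value of *Rtl1*, which rests on 2 control counts, is no measure of the size of its change.

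In the *Peg10* cluster on chromosome 6, 3 of the 4 genes were called higher and none was called lower, beside 14.4% and 13.3% of all genes. *Peg10* (mm9 chr6:4697306-4710514, plus strand) is a paternally expressed gene derived from a retrotransposon and is essential for the placenta. It was measured at 513, 245 and 289 CPM in control replicates 1, 2 and 3 and at 2195, 2037 and 1979 CPM in HOXA13 replicates 1, 2 and 3. All HOXA13 libraries lay far above all control libraries, among which replicate 1 was highest. The mean rose from 349 ± 144 to 2070 ± 112 CPM (SD, n = 3), which is a 5.93-fold increase (log2 fold change 2.57 ± 0.25 SE, adjusted p = 0.00033). Per kb of exon, *Peg10* ranked number 5 among the placed imprinted genes in control cells at a mean of 52.4 CPM per kb and first in HOXA13 cells at 311 CPM per kb. On that scale the tetraspanin gene *Cd81* was highest in control cells, at 116 CPM per kb, and was at 102 CPM per kb in HOXA13 cells. The gene next to *Peg10* on the opposite strand, *Sgce* (chr6:4624350-4697204), encodes ε-sarcoglycan and is also paternally expressed. Its level was 12.4, 10.9 and 12.0 CPM in control and 18.9, 15.7 and 17.5 CPM in HOXA13 libraries (log2 fold change 0.56 ± 0.11 SE, adjusted p = 0.0082). The groups did not overlap, although this rise was far smaller than that of *Peg10*. *Ppp1r9a* (chr6:4853004-5115661, plus strand), which encodes the actin-binding protein neurabin and is maternally expressed in some tissues, was measured at 27.7, 30.1 and 27.3 CPM in control and 46.3, 41.7 and 42.8 CPM in HOXA13 libraries (log2 fold change 0.62 ± 0.08 SE, adjusted p = 0.0013). All HOXA13 libraries lay above all control libraries. *Asb4*, which encodes an ankyrin repeat protein with a SOCS box, was near 1 CPM and was not called (log2 fold change -0.58, adjusted p = 0.361).

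In the *Dlk1-Dio3* cluster on chromosome 12, 5 of 6 genes were called, 4 lower and 1 higher. Of all genes, 13.3% were called lower and 14.4% higher. The gene called higher was *Rtl1*, which passed the filter through its HOXA13 counts alone. Here the maternal chromosome transcribes a series of noncoding RNAs (*Meg3*, *Rian*, *Mirg* and the antisense strand of *Rtl1*), which carry small nucleolar RNAs and microRNAs (miRNAs), and the paternal chromosome transcribes *Dlk1*, *Rtl1* and *Dio3*. *Meg3* (mm9 chr12:110779211-110809936, plus strand) was measured at 218, 233 and 236 CPM in control and 158, 157 and 164 CPM in HOXA13 libraries. All HOXA13 libraries lay below all control libraries (log2 fold change -0.52 ± 0.06 SE, adjusted p = 0.000645). *Rian* (chr12:110842155-110899919, plus strand) was measured at 181, 189 and 191 CPM in control and 119, 112 and 107 CPM in HOXA13 libraries (log2 fold change -0.73 ± 0.06 SE, adjusted p = 0.000187). *Mirg* (chr12:110973191-110987665, plus strand) was measured at 11.9, 12.2 and 12.3 CPM in control and 6.65, 6.99 and 7.86 CPM in HOXA13 libraries (log2 fold change -0.77 ± 0.12 SE, adjusted p = 0.00272). These 3 noncoding RNAs were lower in every HOXA13 library, and for each of them the 3 libraries of a group were close to each other. For every 100 *Meg3* counts there were 80.9 to 82.8 *Rian* counts in control and 65.5 to 75.3 in HOXA13 libraries.

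*Dlk1* (mm9 chr12:110691033-110701546, plus strand), a transmembrane protein with EGF repeats that belongs to the Notch ligand family, is known to be transcribed from the paternal copy and was also lower. Its level was 13.3, 15.5 and 14.7 CPM in control and 8.02, 10.7 and 9.52 CPM in HOXA13 libraries (log2 fold change -0.62 ± 0.14 SE, adjusted p = 0.0119). The groups did not overlap, but the call was lost without HOXA13 replicate 1 (adjusted p = 0.0516). *Dio3*, which encodes a deiodinase that inactivates thyroid hormone, was measured at 1.25, 0.68 and 1.72 CPM in control and 0.965, 0.605 and 0.68 CPM in HOXA13 libraries, and was not called (log2 fold change -0.70, adjusted p = 0.216).

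*Rtl1* (mm9 chr12:110827404-110838540, minus strand), a retrotransposon-derived gene that maintains fetal capillaries in the placenta, was the only gene of the cluster that was called higher. It had 0, 2 and 0 counts in control replicates 1, 2 and 3 and 41, 39 and 38 counts in the HOXA13 replicates. The gene was thus at or under the measurable level in every control library and above it in every HOXA13 library, at 2.08, 2.15 and 2.87 CPM. The ratio of the summed counts, 118 against 2, was 65.7 after scaling, with a 95% interval of 17.8 to 549 that covers counting error only. The gene passed the filter on low counts through its HOXA13 counts alone, so that its place among the called genes is no support of its own. Per kb of exon the level in HOXA13 cells remained low, at 0.372 CPM per kb. The maternal copy is transcribed from the opposite strand of *Rtl1* and gives rise to miRNAs that pair with the *Rtl1* transcript along their whole length. In the RefSeq set (GRCm38.p6, chromosome 12, plus strand), 11 mature miRNAs of 6 hairpins were fully complementary to the *Rtl1* transcript of 6357 bases. One for each hairpin is shown, because they mark where the *Rtl1* transcript is covered by the opposite strand. They are listed in the order of their sites along the transcript, with the seed (bases 2 to 8) in capitals.
mmu-miR-136-5p: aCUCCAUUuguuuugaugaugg
mmu-miR-432: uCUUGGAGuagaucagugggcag
mmu-miR-434-3p: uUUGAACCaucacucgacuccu
mmu-miR-127-3p: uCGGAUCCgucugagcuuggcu
mmu-miR-433-3p: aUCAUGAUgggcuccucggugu
mmu-miR-431-5p: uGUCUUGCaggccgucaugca
Their sites lie at bases 199 to 220, 523 to 545, 965 to 986, 2642 to 2663, 3749 to 3770 and 5072 to 5092 of the transcript. No seed was shared among these miRNAs. The mature miRNAs were not measured by these libraries, and it is not stated whether counting used the strand, so reads of *Rtl1* and of its opposite strand may not be told apart. The 6 hairpins take up between 1.2% and 2.0% of the *Rtl1* exon bases each.

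The only one of the 44 genes placed on chromosome 1, *Zdbf2* (mm9 chr1:63319839-63361150, plus strand), had the smallest adjusted p of the 41 tested genes. It encodes a zinc finger protein, is paternally expressed, and is known for a switch of promoters during early development, in which transcription from an upstream start precedes that from the start nearer the gene. The RefSeq promoters of both starts are printed to show how they differ, from 250 bases before to 50 bases after the start, with CpG dinucleotides in capitals (GRCm38.p6, plus strand, chr1:63200108-63200407 for the upstream start and chr1:63273019-63273318 for the downstream start).
Zdbf2 upstream start: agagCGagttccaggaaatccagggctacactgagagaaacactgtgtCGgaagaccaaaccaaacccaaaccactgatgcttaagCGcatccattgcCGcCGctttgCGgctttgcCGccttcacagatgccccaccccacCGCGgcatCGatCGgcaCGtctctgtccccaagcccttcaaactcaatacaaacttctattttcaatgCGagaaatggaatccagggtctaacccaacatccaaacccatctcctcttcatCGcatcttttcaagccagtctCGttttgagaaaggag
Zdbf2 downstream start: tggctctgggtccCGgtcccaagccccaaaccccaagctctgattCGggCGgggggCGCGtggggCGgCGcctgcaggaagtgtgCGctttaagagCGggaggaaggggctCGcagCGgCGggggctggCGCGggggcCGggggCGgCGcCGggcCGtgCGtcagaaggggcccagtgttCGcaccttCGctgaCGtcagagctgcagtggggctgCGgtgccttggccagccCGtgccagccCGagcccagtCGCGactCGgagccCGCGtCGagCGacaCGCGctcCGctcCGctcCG
The upstream window holds 15 CpG dinucleotides and the downstream window holds 38. The counts are per gene and do not separate the transcripts of the starts. *Zdbf2* was measured at 248, 303 and 240 CPM in control and at 114, 105 and 108 CPM in HOXA13 libraries. The groups lay far apart, and the HOXA13 libraries were close to each other. The mean fell from 264 ± 34.3 to 109 ± 4.30 CPM (SD, n = 3), a 2.42-fold decrease (log2 fold change -1.27 ± 0.10 SE, adjusted p = 8.89e-05). Chromosome 1 as a whole was shifted upward in the HOXA13 libraries, with a median log2 fold change of 0.38 over 779 tested genes, 56.2% of which were called. *Zdbf2* thus lay 1.65 below the median of its chromosome, and its log2 fold change was -1.64 when each chromosome was centred in each library.

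*Nnat* (mm9 chr2:157385814-157388258, plus strand) encodes neuronatin, a small membrane protein of developing neurons and endocrine cells, and is paternally expressed. It was measured at 20.1, 12.1 and 13.5 CPM in control and at 3.10, 5.23 and 5.59 CPM in HOXA13 libraries. All HOXA13 libraries lay far below the lowest control library. The mean fell from 15.2 ± 4.26 to 4.64 ± 1.35 CPM (SD, n = 3), a 3.33-fold decrease (log2 fold change -1.73 ± 0.27 SE, adjusted p = 0.00258). Its promoter is shown for a match of the hexamer TGCCGC, the core of the sequence bound by ZFP57, which holds methylation on imprinted copies (RefSeq, GRCm38.p6, chr2:157559828-157560127, plus strand, CpG dinucleotides in capitals). The match lies on the reverse strand, as the letters GCGGCA just after the start.
Nnat: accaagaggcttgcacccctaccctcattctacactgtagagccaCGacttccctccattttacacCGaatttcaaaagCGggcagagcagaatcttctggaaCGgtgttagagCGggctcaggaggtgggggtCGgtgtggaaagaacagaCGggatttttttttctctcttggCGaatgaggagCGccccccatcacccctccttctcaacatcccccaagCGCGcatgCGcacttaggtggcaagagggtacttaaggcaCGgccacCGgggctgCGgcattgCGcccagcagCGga
The window holds 17 CpG dinucleotides. Neural markers, as given above, were also lower in HOXA13 cells, and their part in the level of *Nnat* was not tested.

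In the *Kcnq1* cluster on chromosome 7, the cell cycle inhibitor *Cdkn1c* fell and the transcription factor gene *Ascl2* rose, and 7 further tested genes were not called. The share called was 22.2%, beside 27.7% of all genes. *Cdkn1c* (mm9 chr7:150644255-150646955, minus strand) encodes p57, which blocks cyclin-dependent kinases and restrains growth of the embryo. It was measured at 37.2, 21.1 and 28.2 CPM in control and 13.3, 14.3 and 14.6 CPM in HOXA13 libraries. All HOXA13 libraries lay below the lowest control library. The mean fell 2.06-fold, from 28.9 ± 8.07 to 14.1 ± 0.677 CPM (SD, n = 3, log2 fold change -1.04 ± 0.19 SE, adjusted p = 0.00542). *Ascl2* (chr7:150152727-150155169, minus strand), a basic helix-loop-helix factor needed for trophoblast and known as a marker of intestinal stem cells, is imprinted in the extraembryonic lineage. It was measured at 2.90, 1.56 and 1.82 CPM in control and 4.62, 5.34 and 5.82 CPM in HOXA13 libraries. The lowest HOXA13 library was above the highest control library, and the mean rose 2.46-fold (log2 fold change 1.30 ± 0.26 SE, adjusted p = 0.00745). Of the trophoblast markers, *Gata3*, *Tfap2c* and *Krt7* were also higher and *Eomes* was lower, and their part in the level of *Ascl2* was not tested. *Kcnq1ot1*, the paternal noncoding RNA that silences the cluster, was measured at 17.7, 26.5 and 22.9 CPM in control and 24.2, 21.0 and 19.1 CPM in HOXA13 libraries, with overlapping groups (log2 fold change -0.05, adjusted p = 0.833). *Phlda2*, which restrains placental growth, was not called either (log2 fold change -0.03, adjusted p = 0.919). The others were the transporter *Slc22a18*, the tetraspanin *Cd81*, *Tssc4*, the lipid transfer protein *Osbpl5* and the nucleosome assembly protein *Nap1l4*, with log2 fold changes from -0.36 to -0.02, of which *Cd81* passed without control replicate 1 (log2 fold change -0.30, adjusted p = 0.0150). The potassium channel gene *Kcnq1* was counted 2, 0 and 1 times in control and 1, 0 and 0 times in HOXA13 libraries and was not measurable at this depth.

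The *Snrpn* cluster, the mouse counterpart of the Prader-Willi and Angelman region, held changes in opposite directions among genes that lie side by side. *Mkrn3* (mm9 chr7:69562479-69565039, minus strand), a makorin E3 ubiquitin ligase, was measured at 3.03, 2.24 and 2.78 CPM in control and 5.03, 5.67 and 4.31 CPM in HOXA13 libraries. It rose without overlap of the groups (log2 fold change 0.89 ± 0.20 SE, adjusted p = 0.0125), but did not pass without HOXA13 replicate 1 (adjusted p = 0.0559) or without HOXA13 replicate 2 (adjusted p = 0.0675). *Magel2* (chr7:69521865-69526526, plus strand), a MAGE family gene, was measured at 7.05, 1.56 and 5.61 CPM in control and 1.22, 1.93 and 1.06 CPM in HOXA13 libraries. Control replicate 2 lay among the HOXA13 libraries. Its decrease (log2 fold change -1.76 ± 0.51 SE, adjusted p = 0.0356) was not past the threshold when any library other than control replicate 2 was left out, with adjusted p up to 0.147. The MAGE family gene *Ndn*, between 33.3 and 39.8 CPM in all 6 libraries, had a log2 fold change of 0.00. The ubiquitin ligase gene *Ube3a*, which is maternally expressed in neurons, was not called (log2 fold change 0.11, adjusted p = 0.338). *Snrpn*, which encodes a spliceosomal protein, was counted 0, 0 and 0 times in control and 4, 0 and 2 times in HOXA13 libraries. The overlapping feature *Snurf* had 0 counts in all 6 libraries, and how reads of shared exons were counted is not stated.

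For *Peg3*, *Usp29* and *Mest* the control libraries differed widely from each other, and no difference was called. *Peg3* (mm9 chr7:6656603-6683132, minus strand), a zinc finger gene acting in maternal behaviour and growth, was measured at 265, 84.7 and 122 CPM in control and 112, 112 and 117 CPM in HOXA13 libraries. Control replicate 1 was high, control replicate 2 was below all HOXA13 libraries, and the groups overlapped (log2 fold change -0.47, adjusted p = 0.353). *Usp29* (chr7:6913871-6916480, plus strand), a ubiquitin protease gene, was counted 64, 6 and 23 times in control and 17, 18 and 11 times in HOXA13 libraries, with the same order of control libraries (log2 fold change -0.77, adjusted p = 0.363). *Peg3* and *Usp29* start from a shared promoter in opposite directions, and 263 of the 300 bases in their RefSeq windows are shared. The *Peg3* window is printed for that reason (GRCm38.p6, chr7:6730370-6730669, minus strand, CpG dinucleotides in capitals).
Peg3: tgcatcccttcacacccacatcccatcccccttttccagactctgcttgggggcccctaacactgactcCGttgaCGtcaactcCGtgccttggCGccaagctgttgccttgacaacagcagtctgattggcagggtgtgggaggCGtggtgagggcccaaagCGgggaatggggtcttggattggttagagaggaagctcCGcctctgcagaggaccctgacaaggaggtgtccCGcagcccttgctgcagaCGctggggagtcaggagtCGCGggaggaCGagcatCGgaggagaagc
The window holds 13 CpG dinucleotides. *Mest* (mm9 chr6:30673547-30698457, plus strand), an α/β-hydrolase gene long known as a mesoderm transcript, was measured at 37.8, 5.84 and 7.88 CPM in control and 6.60, 8.20 and 5.44 CPM in HOXA13 libraries. Control replicate 1 stood far above the other 5 libraries, and the groups otherwise overlapped (log2 fold change -1.36, adjusted p = 0.157). It was also highest for the sum of the primitive streak markers, but there control replicates 2 and 3 lay above the HOXA13 libraries as well. Without control replicate 1, the log2 fold change was 0.13 for *Peg3*, 0.13 for *Usp29* and -0.03 for *Mest*, so that no decrease was left for these 3 genes. Without control replicate 2, it was -0.78 for *Peg3* (adjusted p = 0.0348), -1.18 for *Usp29* (adjusted p = 0.0492) and -1.77 for *Mest* (adjusted p = 0.0243). *Copg2*, which encodes a coatomer subunit and shares 904 exon bases with *Mest* on the opposite strand, was measured at 87.7, 82.9 and 83.1 CPM in control and 113, 103 and 104 CPM in HOXA13 libraries. It rose slightly and without overlap (log2 fold change 0.33 ± 0.07 SE, adjusted p = 0.00826), and these shared bases make its count and that of *Mest* uncertain. The zinc finger gene *Zim1*, beside *Peg3*, was not called (log2 fold change -0.08, adjusted p = 0.84).

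**Figure D2:**
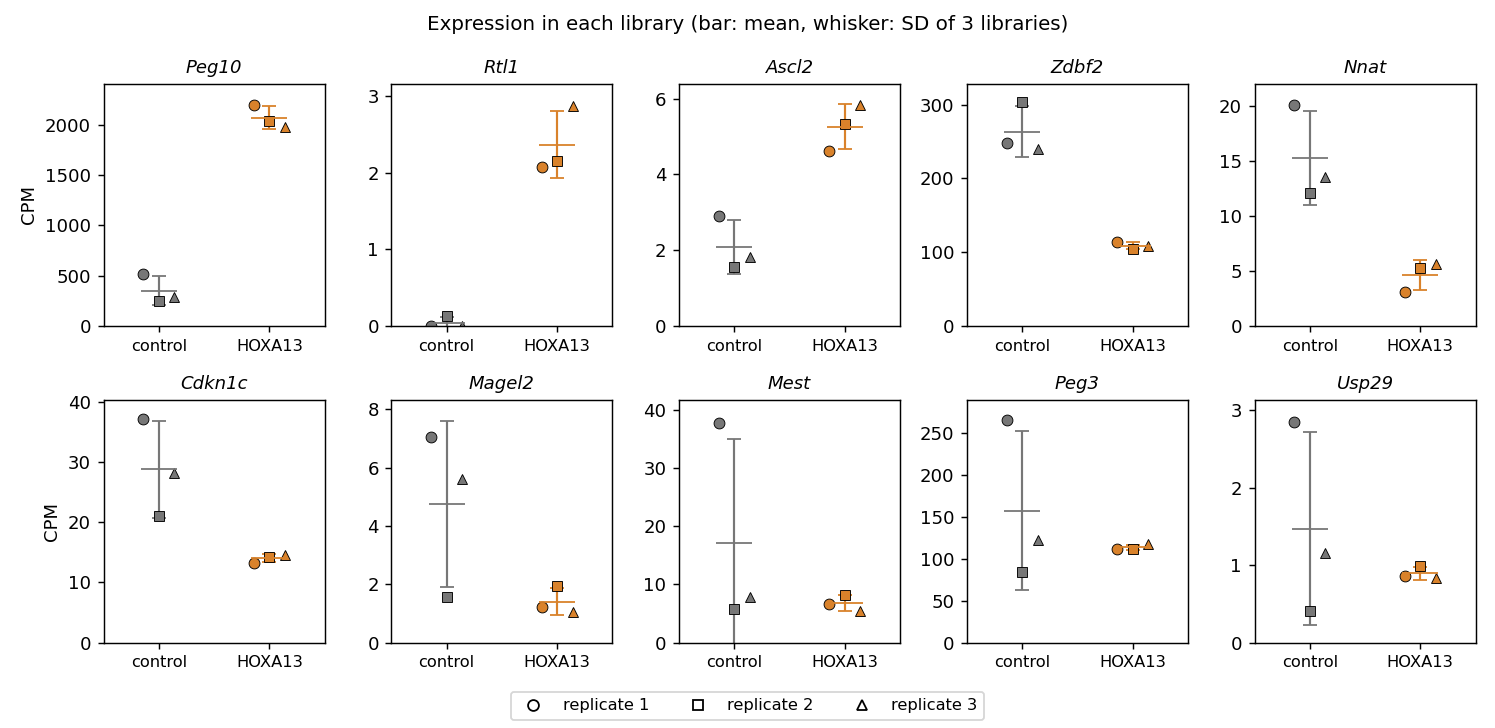
CPM in each library (y axis, from 0, a scale for each gene) for 10 imprinted genes in 3 control and 3 HOXA13 libraries, with horizontal bars for the mean and whiskers for the SD, clipped at 0 for *Mest*. The groups are apart for *Peg10*, *Rtl1*, *Ascl2*, *Zdbf2*, *Nnat* and *Cdkn1c* and overlap for *Magel2*, *Mest*, *Peg3* and *Usp29*, where control replicate 1 is the highest library.

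Among the remaining genes, *Plagl1* rose and *Inpp5f* fell. *Plagl1* (mm9 chr10:12810497-12851500, plus strand), which encodes the zinc finger protein ZAC1, a regulator of other imprinted genes and of the cell cycle, was measured at 29.3, 40.0 and 28.9 CPM in control and 53.2, 52.8 and 56.8 CPM in HOXA13 libraries. The groups did not overlap (log2 fold change 0.73 ± 0.13 SE, adjusted p = 0.00459). *Inpp5f* (chr7:135754842-135839939, plus strand), a phosphoinositide phosphatase gene of which a shorter transcript is imprinted, was measured at 36.7, 30.5 and 31.3 CPM in control and 24.2, 23.4 and 24.6 CPM in HOXA13 libraries. It fell without overlap (log2 fold change -0.45 ± 0.10 SE, adjusted p = 0.0102), but did not pass without HOXA13 replicate 2 (adjusted p = 0.0553). The insulin signalling adaptor *Grb10* was measured at 400, 600 and 524 CPM in control and 407, 411 and 414 CPM in HOXA13 libraries. Control replicate 1 lay below all HOXA13 libraries, and the difference was not called (log2 fold change -0.31, adjusted p = 0.118), but it passed without control replicate 1 (log2 fold change -0.45, adjusted p = 0.00100). The G protein subunit gene *Gnas*, whose exons overlap the antisense transcript *Nespas* by 988 bases, was not called (log2 fold change -0.17, adjusted p = 0.119). The translation regulator *Impact* was not called either (log2 fold change -0.19, adjusted p = 0.0936). Without control replicate 1, adjusted p was 0.0295 for *Gnas* and 0.0378 for *Impact*, both lower in HOXA13 cells, and 0.0211 for *Commd1*, which was higher. *Peg13*, a paternal noncoding RNA, was measured at 7.18, 11.3 and 9.80 CPM in control and 12.2, 13.0 and 13.3 CPM in HOXA13 libraries, without overlap but not past the threshold (log2 fold change 0.46, adjusted p = 0.0788), which it passed without control replicate 2 (adjusted p = 0.0175). The splicing factor gene *Zrsr1*, its host *Commd1*, the antisense RNA *Airn*, the amino acid transporter *Slc38a4* and *Trappc9*, which surrounds *Peg13*, had log2 fold changes from -0.18 to 0.05, and none was called. *Commd1* shares 2449 exon bases with *B3gnt2* on the same strand, so its count is uncertain. The potassium channel gene *Kcnk9* had 0 counts in all 6 libraries, which allows a level of up to 0.134 to 0.227 CPM.

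Calls in both directions occurred among paternally and among maternally expressed genes. Of 20 tested paternally expressed genes, 5 were called higher (*Peg10*, *Sgce*, *Mkrn3*, *Plagl1* and *Rtl1*) and 4 lower (*Magel2*, *Dlk1*, *Nnat* and *Zdbf2*), with a median log2 fold change of -0.15, and without *Rtl1* 4 of 19 were called higher and 4 lower, with a median of -0.18. Of 19 tested maternally expressed genes, 3 were called higher (*Copg2*, *Ppp1r9a* and *Ascl2*) and 4 lower (*Cdkn1c*, *Meg3*, *Rian* and *Mirg*), with a median of -0.08. The count of paternally expressed genes called lower was 7 without control replicate 2 and 2 without HOXA13 replicate 1. The calls came to 45.0% of the paternally (42.1% without *Rtl1*) and 36.8% of the maternally expressed genes, beside 27.7% of all genes. The difference between these classes was not tested. Genes imprinted in most tissues made up 13 of the 17 calls, out of 26 tested (50.0%, beside 27.7% of all genes). *Rtl1*, which passed the filter through its HOXA13 counts alone, is among these 13. Of 13 tested genes whose imprinting is limited to some tissues, mostly placenta or brain, 3 were called (23.1%, beside 27.7% of all genes), and all 3 were higher (beside 14.4% of all genes). The difference between these 2 classes was not tested.

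The spread between libraries was larger in control than in HOXA13 cells for 23 of 39 imprinted genes and larger in HOXA13 cells for 16. Over these 39 genes, which had a mean of at least 1 CPM in control cells, the highest library exceeded the lowest by a median of 1.30 times in control and 1.16 times in HOXA13 cells, beside 1.23 and 1.12 times over 12928 genes filtered in the same way. This ratio was over 2 for 6 imprinted genes in control and for 1 (*Asb4*) in HOXA13 cells. In control cells it was 7.00 for *Usp29*, 6.47 for *Mest*, 4.51 for *Magel2*, 3.13 for *Peg3*, 2.53 for *Dio3* and 2.09 for *Peg10*. Control replicate 2 was lowest for all 6 of these genes. Replicate 1 was the highest control library for 18 of the 39 genes, replicate 2 for 14 and replicate 3 for 7. The noncoding RNAs of the *Dlk1-Dio3* cluster were among the steadiest, with ratios of 1.03 for *Mirg*, 1.06 for *Rian* and 1.08 for *Meg3* in control cells.

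**Figure D3:**
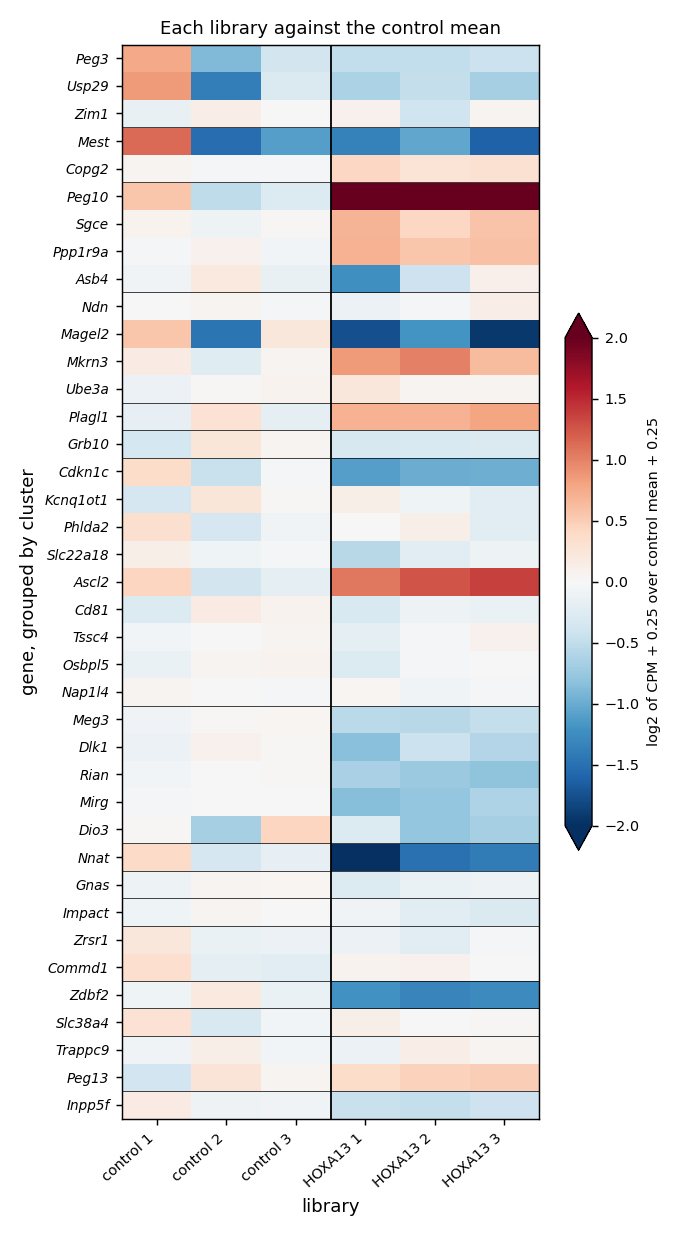
Log2 ratio of each library to the control mean (CPM + 0.25) for the 39 imprinted genes with at least 1 CPM on average in control cells, 1 column a library and 1 row a gene, grouped by cluster, with the colour scale ending at -2 and 2. The HOXA13 columns resemble each other, while control replicates 1 and 2 differ for *Mest*, *Usp29*, *Peg3* and *Magel2*.

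Genes around the clusters were compared to see whether the imprinted genes moved as their surroundings did. The 5 nearest tested genes on each side of each of 17 clusters came to 170 genes, leaving out genes inside a cluster, of which 53 (31.2%) were called, 30 higher and 23 lower, with a median log2 fold change of 0.04. The shares called higher (17.6%) and lower (13.5%) were near those of all genes (14.4% and 13.3%). These neighbours were taken by position alone. They lie up to 5541 kb from the cluster, and some, such as *Gpr1* and *Peg12*, belong to imprinted domains. Around *Zdbf2*, 5 of 10 neighbours were called higher and none lower, with a median of 0.43. These included *Gpr1*, a chemerin receptor gene in the same imprinted domain (log2 fold change 1.25 ± 0.36 SE, adjusted p = 0.0362). The nearest neighbour on the other side, *Adam23*, was not called (log2 fold change -0.63, adjusted p = 0.0531). The share and the median of these neighbours were close to those of chromosome 1 as a whole (56.2% called, median 0.38). Inside 8 of the clusters lay 13 further tested genes, of which 2 were called, beside 27.7% of all genes. These were *Cars* in the *Kcnq1* cluster and *B3gnt2* beside *Commd1*, both higher. Around the *Peg10* cluster, 3 neighbours were called higher, among them *Casd1*, a sialic acid acetyltransferase gene at 31.0 kb (log2 fold change 0.60, adjusted p = 0.00666). The calcitonin receptor gene *Calcr*, on the same side, was lower (log2 fold change -2.69 ± 0.52 SE, adjusted p = 0.00677). Around the *Dlk1-Dio3* cluster, 2 of 10 neighbours were called, both higher, with a median of 0.05. Around *Nnat*, 1 was called higher and 3 lower, with log2 fold changes from -0.35 to 0.65, and *Blcap*, the host gene in which *Nnat* lies, was not called (log2 fold change -0.04 ± 0.11 SE, adjusted p = 0.806). Beside the *Snrpn* cluster, *Peg12*, a further paternally expressed gene at 41.7 kb, was called higher (log2 fold change 2.50 ± 0.14 SE, adjusted p = 2.34e-05), and 5 others were called lower.

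**Figure D4:**
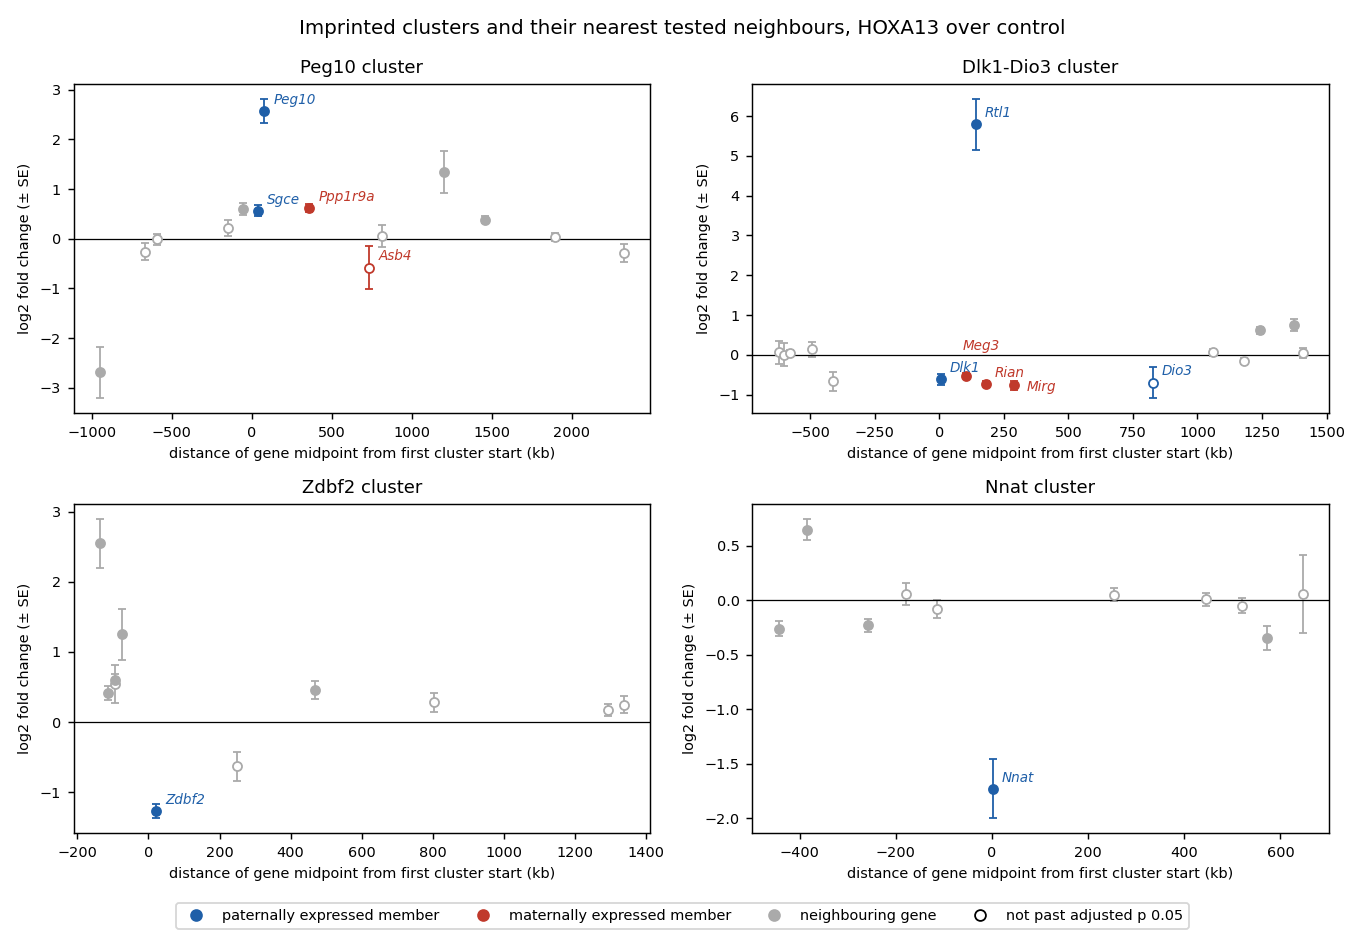
Log2 fold change with standard error (y axis) against the distance of the gene midpoint from the first start in the cluster in kb (x axis), for imprinted genes (coloured by expressed allele) and their 5 nearest tested neighbours on each side (grey, without genes inside the cluster), filled where the adjusted p was under 0.05. *Zdbf2* and *Nnat* lie apart from their neighbours, and in the *Dlk1-Dio3* cluster *Rtl1* lies above and the other 5 genes lie below 0.

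Genes that keep or read imprints were examined as a list of 14, all of which were tested. Of these, 3 were called higher (21.4%, beside 14.4% of all genes), 2 lower (14.3%, beside 13.3%) and 9 were not called. *Uhrf1*, which brings the maintenance methyltransferase to replicating DNA, was measured at 260, 292 and 260 CPM in control and 424, 434 and 422 CPM in HOXA13 libraries (log2 fold change 0.66 ± 0.07 SE, adjusted p = 0.000348). *Dppa3*, which protects the maternal genome from demethylation after fertilization, was measured at 36.1, 34.2 and 46.6 CPM in control and 93.1, 86.6 and 83.4 CPM in HOXA13 libraries (log2 fold change 1.17 ± 0.12 SE, adjusted p = 0.000395). Both rose with no overlap between groups, as did the histone methyltransferase gene *Setdb1* (log2 fold change 0.41, adjusted p = 0.00137). *Smchd1*, a chromatin protein that silences some imprinted clusters, fell (log2 fold change -0.50 ± 0.11 SE, adjusted p = 0.0105), as did the helicase gene *Hells* (log2 fold change -0.28, adjusted p = 0.0445). Without HOXA13 replicate 3 neither of these 2 was called, and without control replicate 3 or without HOXA13 replicate 2 only 1 was. *Zfp57*, which binds methylated imprint control regions, was measured at 89.5, 218 and 95.3 CPM in control and 96.8, 93.4 and 108 CPM in HOXA13 libraries. Control replicate 2 was thus more than 2 times as high as every other library, and no difference was called (log2 fold change -0.43, adjusted p = 0.338). Its partner *Trim28* (log2 fold change 0.11) and the methyltransferase *Dnmt1* (log2 fold change -0.02) were not called, and neither were *Zfp445*, *Ctcf*, *Ehmt2*, *Arid4a*, *Arid4b* and *Eed*.

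Promoter sequences were available for 34 of the 44 genes, with 52 promoters of 300 bases. They held a median of 15.0 CpG dinucleotides, beside 7.0 in the 32851 promoters of the RefSeq table. The ZFP57 hexamer TGCCGC was found on either strand in 12 of the 52 promoters (23.1%), beside 11.6% of all promoters, and was present in the upstream promoter of *Zdbf2* and in that of *Nnat* shown above. These matches include overlapping windows of *Mest*. The hexamer itself holds a CpG, and the shares were not adjusted for the higher CpG content of the imprinted promoters. Of 2 heptamers searched for HOXA13 on both strands, TCGTAAA was in none of the 52 promoters, beside 0.597% of all promoters, and CAATAAA was in 1 (*Kcnq1ot1*), which is 1.92%, beside 4.6% of all promoters. A match is a description of the letters in the window, and binding was not measured here.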

How the data were processed

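RNA of 3 control and 3 HOXA13 KH2 mESC cultures was sequenced. Per the submitters' processing notes, bcl2fastq 2.17, TopHat2 2.0.14 and HTSeq 0.6.1p1 were used with mm9, and the authors deposited whole-number counts per gene for each library without normalization. The library kit was directional, but the gene annotation, counting mode and strand setting are not given in the sources used here. Counts were filtered with filterByExpr (minimum count 10, minimum total 15), scaled with TMM factors and compared with edgeR 4.0.16 in R 4.3.3 (glmQLFit, glmQLFTest, Benjamini-Hochberg adjustment over all 13846 genes tested, prior count 0.125). Standard errors (SE) are the size of each log2 fold change over the root of its F statistic. The code was tested on simulated data. Groups and replicate numbers came from the sample labels.

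The imprinted genes and the other lists were chosen with earlier results of these data known. Values in each library were printed for genes called with a log2 fold change of at least 1, for genes at or under 3 counts in 1 group only, and for genes whose highest control library exceeded the lowest over 4 times at 1 CPM or more. The same was done for the gene with the smallest adjusted p in most clusters and, chosen after their values were seen, for the other called genes and some beside them. Positions are from the GENCODE annotation of mm9, which placed 22252 of 24393 features, and promoters and miRNAs are from RefSeq GRCm38.p6. The alternatives were RLE factors, library size alone, no filter, at least 10 counts in every library, a replicate block, DESeq2 1.42.0, limma-voom (limma 3.58.1), each chromosome centred, and each library left out.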

Additional observations from a re-analysis of the deposited data

How the results depend on the processing

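Of the 17 imprinted genes called, 13 were past the threshold under every one of the 14 alternatives that gave a value, and no called gene changed direction. *Rtl1* gave no value with at least 10 counts in every library. *Magel2* was lost in 7 alternatives, *Mkrn3* without HOXA13 replicate 1 or 2, *Dlk1* without HOXA13 replicate 1 and *Inpp5f* without HOXA13 replicate 2. With each library left out in turn, imprinted genes called higher ranged from 7 to 9 and lower from 7 to 12. The paternally expressed genes called lower ranged from 2 to 7, and the imprint maintenance genes called lower ranged from 0 to 2. Library size alone added *Gnas* and *Impact*, lowered the median of all genes to -0.07, and gave 1576 genes higher and 2500 lower over all genes, against 1994 and 1842. Leaving out a library gave from 904 to 2579 genes lower and from 1134 to 2428 higher, and the cause was not tested.

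Replicate numbers are shared by both groups, but same-numbered libraries did not deviate together (correlations of -0.019, -0.056 and 0.037), and not every library correlated best with its own number. With the replicate block, 1696 genes were higher and 1476 lower over all genes. Of the imprinted genes, 16 of 17 remained called, *Magel2* was not (adjusted p = 0.0841), and 1 imprint maintenance gene in place of 2 was called lower. The levels of *Rtl1*, *Snrpn*, *Kcnq1* and *Kcnk9*, which were at or under 3 counts in at least 1 whole group, are poorly measured. For *Snrpn*, how reads of exons shared with *Snurf* were counted is not stated, so its low counts may not be a matter of depth. Overlapping genes may share reads, since the strand setting is not stated.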
